A study of Mus musculus with 8 samples.

Results

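Pericyte and smooth muscle markers are genes by which the mural cells of blood vessels are usually recognised. The 10 genes followed here were chosen by name: Acta2, Tagln, Cnn1, Myh11, Pdgfrb, Mcam, Cspg4, Kcnj8, Abcc9 and Rgs5, out of 16465 genes with a named probe on the array. The array carried 22 probes for them, of which 18 could be tied to their measured values. RNA came from EGFP-positive cells that were sorted out of vertebral columns dissected at E12.5 from mice of strain C57BL/6J;129, with 4 arrays labelled Bapx1 WT (wildtype) and 4 labelled Bapx1 HOMO (null). In the wildtype line, which the study writes as Bapx1 +/tm2.Tlu, EGFP followed an intact Bapx1 gene and was translated from an internal ribosome entry site. In the null line, Bapx1 tm4.Tlu/tm4.Tlu, EGFP was placed directly behind the start codon to make a null allele. Both reporters were driven by the endogenous Bapx1 promoter, and cells were collected by their EGFP signal. Reporter dose and EGFP translation changed together with genotype, and their effect on the sorted population cannot be told apart from it. The study calls its replicates biological. The sources used here do not state how many embryos went into each, and p-values measure the spread between these arrays.

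Mural cells surround the endothelial tube of a vessel. Smooth muscle cells of larger vessels contract through actin and smooth muscle myosin, whereas pericytes of capillaries sit in the basement membrane and signal to the endothelium. Endothelial cells recruit both by secreting PDGF-B, which is sensed through the receptor Pdgfrb on the mural cell. No single gene of the set is restricted to mural cells: Acta2 and Tagln are also made by early striated muscle and activated fibroblasts, Mcam by endothelium, Cspg4 by glial and cartilage progenitors, and Pdgfrb by many mesenchymal cells.

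Between 41% and 45.8% of probes were detected per array, at a detection p under 0.05. Levels below are log2 normalised intensities, in which a difference of 1 is a doubling, and probes detected on at least 4 of 8 arrays were tested (19965 probes, 10951 genes). In the limma fit 156 probes (0.781%) passed a Benjamini-Hochberg adjusted p of 0.05, 77 higher (0.386%) and 79 lower (0.396%) in null. Wildtype replicate 2 and null replicate 1 stood somewhat apart, with a mean correlation to their own group of 0.969 and 0.972 against 0.979 to 0.985 for the other arrays. Leaving out null replicate 1 raised the count of called probes to 3185 (16%) and that of called genes, by their brightest probe, to 17% of those tested. Values without that array are given beside the named markers and list genes whose call it changed, and as counts for each list. The probe of the targeted gene, Nkx3-2 (the current symbol of Bapx1), read 4.42, 4.46, 4.48 and 4.84 on the wildtype arrays, detected on 0 of 4, and 5.45, 7.49, 6.59 and 7.55 on the null arrays, detected on 4 of 4. Where this probe lies relative to the inserted EGFP was not examined, so it does not check the labels, and wildtype and null name the arrays as labelled.

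The mural markers were detected only in part. Of the 10 genes, 5 were detected on all 8 arrays by at least 1 probe, namely Acta2, Pdgfrb, Mcam, Cspg4 and Abcc9. Kcnj8 and Tagln were detected on 6 arrays each, Rgs5 on 3, Myh11 on 2 and Cnn1 on 0. The genes most restricted to contractile smooth muscle were thus at or near background, whereas the receptors and surface proteins shared with other mesenchymal cells were measured well. Cnn1, Myh11 and Rgs5 each rest on 1 matched probe whose sensitivity was not examined. Their lack of detection therefore does not show that the RNA was absent. Of the 18 probes with values, 13 probes of 7 genes entered the fit and 0 of 13 were called, against 0.781% of all tested probes. At an unadjusted p under 0.05 there were 8 of 13, from 5 genes, against 21.7% of all tested probes (11% higher in null). A per-probe analysis of variance, the kind of test the study's methods name, run here on the quantile-normalised values with no fold limit, gave 0 after Benjamini-Hochberg adjustment and 7 unadjusted. Over all 19965 tested probes that test gave 12 after adjustment and 3763 unadjusted. The mean was higher in null for 8 of 13, against 44.9% of all tested probes. These were the tested probes of Acta2, Abcc9, Kcnj8 and Pdgfrb, so genes with more than 1 probe were counted more than once. The median difference of the 13 probes, null minus wildtype, was 0.40 on the log2 scale, beside -0.04 over all tested probes. The differences ran in both directions by gene. RNA was measured in bulk, so fewer or more cells of a type and less or more RNA per cell cannot be told apart in any of these values.

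**Figure D1:**
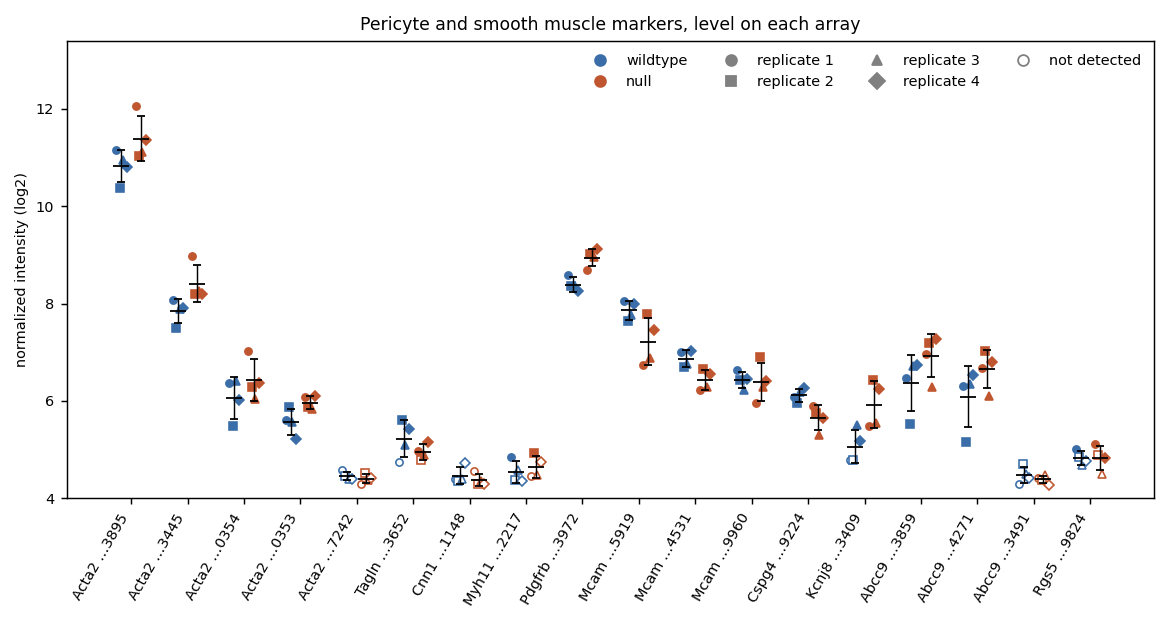
Log2 normalised intensity (vertical axis) of each probe of the 10 genes on the 4 wildtype and 4 null arrays, 1 point per array, with the mean and SD of each group as bars and open symbols where the probe was not detected. Cnn1, Myh11 and Rgs5 lie between 4.29 and 5.11. On this normalised scale groups do not overlap for Pdgfrb, Cspg4, 1 Acta2 probe (ILMN_2923445) and 1 Mcam probe (ILMN_2614531).

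Among the contractile genes only Acta2, the smooth muscle actin, was well measured. Its brightest probe (ILMN_2693895) read 11.16, 10.38, 10.94 and 10.80 in wildtype replicates 1 to 4, and 12.05, 11.03, 11.11 and 11.35 in null replicates 1 to 4. Null replicate 1 was the highest and wildtype replicate 2 the lowest, and the groups overlapped because wildtype replicate 1 lay above 2 null arrays. The means were 10.82 ± 0.33 and 11.39 ± 0.47 (SD, n = 4 each), a difference of 0.57 (SE 0.24, 95% interval 0.03 to 1.11) or 1.48-fold, which did not pass the threshold (limma adjusted p = 0.216).

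A dimmer Acta2 probe (ILMN_2923445) separated the groups completely, which 10.8% of all tested probes did and 4.76% with null as the higher group. It read 8.08, 7.497, 7.89 and 7.91 in wildtype and 8.98, 8.20, 8.25 and 8.19 in null. All null arrays lay above all wildtype arrays, yet 3 of the null values were within 0.17 of the highest wildtype value and null replicate 1 alone lay far above. The difference was 0.56 (SE 0.20, adjusted p = 0.167). In the deposited intensities, not scaled between arrays, this probe ran from 134 to 262.4 in wildtype and from 348.2 to 381.5 in null. The brightest probe ran from 1200.4 to 2345 and from 2524.6 to 3287.5 there, so the groups overlapped on neither. The other detected Acta2 probes differed by 0.40 (ILMN_2710353, adjusted p = 0.18) and 0.37 (ILMN_2710354, adjusted p = 0.418), and ILMN_1237242 was detected on 0 arrays. All 4 tested Acta2 probes thus had a higher mean in null under the main normalisation. Scaling by the median and the median absolute deviation turned the brightest probe to -0.32, where the median over all tested probes was itself -0.26. The others were then at 0.31 (ILMN_2923445), 0.41 (ILMN_2710354) and 0.44 (ILMN_2710353). With each array centred on its median the 4 probes, from the brightest down, differed by 0.77, 0.88, 0.63 and 0.62. In that setting the median over all tested probes was 0.19, and none of the 4 passed the threshold. Without null replicate 1 the brightest probe differed by 0.35, against 0.57 with it, ILMN_2923445 by 0.37 and ILMN_2710354 by 0.17. Without wildtype replicate 2, ILMN_2710354 also differed by only 0.17. Coding sequences of the muscle actins are nearly identical, and the probe sequences were not examined, so signal from Acta1, Actc1 or Actg2 on Acta2 probes was not tested.

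Tagln encodes transgelin, an actin-binding protein that is among the earliest markers of smooth muscle. Its probe read 4.75, 5.61, 5.10 and 5.43 in wildtype and 4.97, 4.78, 4.89 and 5.16 in null, all close to the lowest detected level of 4.798 to 5.038 on these arrays. It was detected on 3 arrays of each genotype and was slightly lower in null, by 0.28 (95% interval -0.69 to 0.14, adjusted p = 0.408), with overlapping groups. Its difference was -0.15 without wildtype replicate 2 and -0.43 without wildtype replicate 1. Null replicate 1, the highest array for most Acta2 probes, was in the middle of the range for Tagln.

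Myh11 encodes the heavy chain of smooth muscle myosin and Cnn1 encodes calponin, an inhibitor of its ATPase. Myh11 was detected only on wildtype replicate 1 (4.84) and null replicate 2 (4.92), and its 6 other arrays lay between 4.36 and 4.74. Cnn1 was detected nowhere, with means of 4.47 ± 0.17 in wildtype and 4.38 ± 0.13 in null (SD, n = 4 each). Both are mature smooth muscle products and neither had a difference that these arrays could resolve (exact two-sided permutation p = 0.571 for Myh11 and 0.486 for Cnn1, where 0.0286 is the smallest p that 4 against 4 arrays allow).

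Contractile smooth muscle genes are known to be switched on by serum response factor through CArG boxes. Sequences are shown to place this motif in Acta2, the contractile marker measured here, and in other contractile genes, each as 30 bases of the RefSeq promoter (GRCm38.p6), 5′ to 3′ on the strand of the gene, with the box in capitals. The motif searched was CCNNNNNNGG with at least 5 of its 6 inner bases A or T, which reads the same on both strands, in windows from 250 bases before to 50 after the gene start.
Acta2, chr19:34255438-34255467, minus strand: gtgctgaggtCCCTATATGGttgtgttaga
Acta2, chr19:34255388-34255417, minus strand: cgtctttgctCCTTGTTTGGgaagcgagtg
Myl9, chr2:156775293-156775322, plus strand: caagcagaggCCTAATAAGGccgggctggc
Myl9, chr2:156775355-156775384, plus strand: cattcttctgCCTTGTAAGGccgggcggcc
Actc1, chr2:114052903-114052932, minus strand: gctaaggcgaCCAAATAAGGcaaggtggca
The Acta2 boxes began 84 and 34 bases before the gene start, those of Myl9 161 and 99 bases before, and the printed box of Actc1, the nearest to the start of its 4, 47 bases before. Such a box occurred in 9.98% of 32851 promoter windows, and 0.822% held more than 1. Of the 7 genes of the set with a promoter entry only Acta2 held the motif; Tagln, Myh11 and Pdgfrb were not examined. A match in letters is not evidence of binding, and windows of this length leave out introns and distal elements.

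Among other genes with a box, values differed from gene to gene. Myl9, a regulatory light chain of smooth muscle and non-muscle myosin, was 9.16 ± 0.27 in wildtype and 9.17 ± 0.54 in null, a difference of 0.01 (adjusted p = 0.982). Actc1, the cardiac actin that embryonic skeletal muscle also makes, was 7.96 ± 0.78 and 9.26 ± 0.71 (SD, n = 4 each), a difference of 1.31 (adjusted p = 0.14). Srf itself, which encodes the factor that binds the box, was 10.11 ± 0.18 and 9.90 ± 0.33, and Myocd, its smooth muscle cofactor, was 5.51 ± 0.33 and 5.53 ± 0.12; neither passed the test. The probes of Mrtfa and Mrtfb, the cofactors that respond to actin, were detected on 0 arrays.

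The surface proteins differed in sign from gene to gene, and Pdgfrb had the smallest p of the set. Pdgfrb, the receptor for PDGF-B, read 8.60, 8.36, 8.36 and 8.26 in wildtype and 8.69, 9.02, 8.96 and 9.12 in null. Every null array lay above every wildtype array, with only 0.09 between null replicate 1 and wildtype replicate 1 but wider gaps elsewhere. Before normalisation the groups overlapped, as the deposited intensity of null replicate 1 (281.5) lay below that of wildtype replicate 1 (382). The means were 8.39 ± 0.15 and 8.95 ± 0.18 (SD, n = 4 each), a difference of 0.55 (SE 0.13, 95% interval 0.26 to 0.85) or 1.47-fold.

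This placed Pdgfrb 473rd of 19965 probes by p, with an adjusted p of 0.0808, just outside the threshold. Without null replicate 1 the difference was 0.64 and passed (adjusted p = 0.0123), and over the fits that left out 1 array each it stayed between 0.50 and 0.64, with adjusted p from 0.0123 to 0.242. Median and median absolute deviation scaling lowered it to 0.13 and centring each array on its median raised it to 0.85, where the median of all tested probes was -0.26 and 0.19.

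Mcam, the adhesion molecule CD146 of pericytes and endothelium, was lower in null by its brightest probes but not by the dimmest. The brightest probe (ILMN_2955919) read 8.06, 7.64, 7.77 and 7.99 in wildtype and 6.75, 7.79, 6.89 and 7.45 in null. Null replicates 1 and 3 lay well below all wildtype arrays, and null replicate 2 lay inside the wildtype range. The means were 7.87 ± 0.20 and 7.22 ± 0.49 (SD, n = 4 each), a difference of -0.65 (SE 0.23, 95% interval -1.16 to -0.14), 1.57-fold lower (adjusted p = 0.158).

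The second Mcam probe (ILMN_2614531) had groups that did not overlap, with wildtype values of 7.01, 6.70, 6.75 and 7.02 and null values of 6.23, 6.66, 6.29 and 6.56. The difference was -0.44 (SE 0.14, adjusted p = 0.139), and the lowest wildtype and highest null arrays were only 0.04 apart. Deposited intensities of this probe overlapped, at 69 to 118 in wildtype and 43.8 to 113.6 in null. The third probe (ILMN_1229960) differed by -0.05 (95% interval -0.48 to 0.38, adjusted p = 0.901), and null replicate 2 was its highest array at 6.90. In all 3 probes null replicate 1 was the lowest array and null replicate 2 the highest of the null group. With each array centred on its median the differences were -0.32, -0.12 and 0.27, in a setting that moved the median of all tested probes from -0.04 to 0.19, so all 3 probes moved up with the rest.

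Cspg4 encodes the proteoglycan NG2, a classical pericyte surface marker. It read 6.07, 5.95, 6.18 and 6.26 in wildtype and 5.91, 5.75, 5.31 and 5.66 in null. All null arrays lay below all wildtype arrays, null replicate 3 lowest, with 0.045 between the nearest arrays of the groups. Its deposited intensities overlapped, at 33.8 to 54.9 in wildtype and 28.4 to 50.3 in null. The means were 6.12 ± 0.13 and 5.66 ± 0.25 (SD, n = 4 each), a difference of -0.46 (SE 0.15, 95% interval -0.79 to -0.13) or 1.38-fold lower (adjusted p = 0.137). It passed without null replicate 1 (-0.55, adjusted p = 0.0357), whereas centring on the median, with the same upward move of all probes, gave -0.21 (adjusted p = 0.593).

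Kcnj8 and Abcc9 encode the pore (Kir6.1) and the regulatory subunit (SUR2) of the ATP-sensitive potassium channel of mural cells, through which these cells hyperpolarise and relax. The genes are next to each other on chromosome 6, with 0 annotated genes between them in GRCm38.p6. Kcnj8 had the largest difference of the tested probes at the main offset of 16, whereas with an offset of 50 it differed by 0.50 and Acta2 (ILMN_2693895, 0.56), Mcam (ILMN_2955919, -0.54), Pdgfrb (0.51) and Acta2 (ILMN_2923445, 0.502) by more. Its probe read 4.78, 4.798, 5.51 and 5.17 in wildtype, where only replicates 3 and 4 were detected, and 5.49, 6.43, 5.54 and 6.24 in null, where all 4 were.

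Null replicates 2 and 4 stood above the 6 other arrays, and null replicates 1 and 3 were level with wildtype replicate 3. The means were 5.06 ± 0.34 and 5.93 ± 0.48 (SD, n = 4 each), a difference of 0.86 (SE 0.25, 95% interval 0.30 to 1.42) or 1.82-fold, not past the threshold (adjusted p = 0.118). Kcnj8 would have passed the detection filter on the null group alone, and 2 of its wildtype values are below detection, so the size of the fold rests partly on background. Without null replicate 1 the difference was 1.01 and passed (adjusted p = 0.0338), and it stayed between 0.69 and 1.01 over all fits that left out 1 array each.

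Abcc9 was represented by probes for both of its transcript accessions. The brightest (ILMN_2623859) read 6.48, 5.52, 6.73 and 6.75 in wildtype and 6.96, 7.20, 6.29 and 7.27 in null, and the other (ILMN_3104271) read 6.30, 5.16, 6.35 and 6.53 and then 6.68, 7.03, 6.11 and 6.80. On both, wildtype replicate 2 was far below the rest, null replicate 3 lay inside the wildtype range and the other null arrays lay above every wildtype array. The differences were 0.56 (SE 0.30, 95% interval -0.11 to 1.24, adjusted p = 0.3) and 0.57 (adjusted p = 0.301), nearly equal for both transcripts. Without wildtype replicate 2 they were 0.28 and 0.26. ILMN_1253491, also of Abcc9, was detected on 0 arrays.

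Rgs5, a GTPase-activating protein that damps G protein signalling and is a widely used pericyte marker, was close to background. It read 5.02, 4.85, 4.68 and 4.77 in wildtype and 5.11, 4.89, 4.49 and 4.83 in null, detected on wildtype replicate 1 and null replicates 1 and 4. Group means were 4.83 in each genotype, with SD of 0.14 and 0.26 (exact permutation p = 1), and the probe did not enter the fit.

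**Figure D2:**
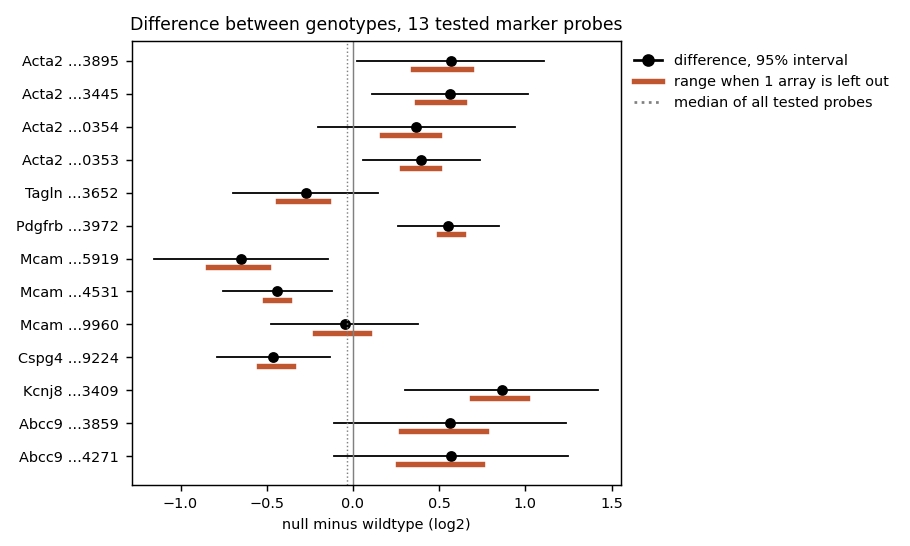
Null minus wildtype difference in log2 normalised intensity (horizontal axis) of the 13 tested probes, with the 95% interval of the limma fit around each point and a red bar for the range over the 8 fits that left out 1 array each. Intervals of Kcnj8, Pdgfrb and 3 Acta2 probes lie above 0 and those of Cspg4 and 2 Mcam probes below it, the Mcam differences run from -0.65 to -0.05, and none had an adjusted p under 0.05 with all arrays.

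The arrays did not order in the same way for every gene. Null replicates 1 and 3 were both below null replicates 2 and 4 in 7 of 13 tested probes, a pattern found in 21.2% of all tested probes, and null replicates 2 and 4 exceeded the 6 other arrays in 4 of 13 (10.7% of all). For Kcnj8 and Mcam null replicates 2 and 4 were the higher pair, but for Acta2 null replicate 1 was the highest array on 3 of 4 probes after normalisation. In the deposited intensities it was the highest on none of the 4, reading 3175.7 against 3287.5 in null replicate 4 on the brightest. Wildtype replicate 2 was the lowest wildtype array in 8 of 13, against 30.9% of all tested probes, and the lowest of all 8 in 5 of 13 (20.7% of all). Acta2, Mcam and Abcc9 enter with more than 1 probe each, so these are counts of probes and not of separate genes. These orderings were noticed in the values and are given as descriptions. On the normalised scale null replicate 1, the highest array on the brightest Acta2 probe, was the lowest null array for Kcnj8.

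The genes closest to Kcnj8 in their profile over the 8 arrays were found by the root mean square distance between profiles centred on their own means. They were Pcdh12, a protocadherin of endothelium, at a distance of 0.15, then Fxyd5 at 0.18, Rfx3 at 0.20, Csf2ra at 0.20 and Cdh11, a mesenchymal cadherin, at 0.20 on the log2 scale. Pcdh12 read 4.51, 4.35, 4.84 and 4.44 in wildtype and 4.86, 5.73, 5.03 and 5.52 in null. Their differences were 0.68 to 0.92 with adjusted p of 0.062 to 0.133. As the distance was taken over the arrays that form the genotype groups, a like difference was part of what was selected. The wildtype values of Pcdh12 lay under or near the lowest detected level of 4.798 to 5.038. So did those of Fxyd5 (4.50, 4.55 and 4.64) except in replicate 3 (5.40). The nearness of these genes to Kcnj8, itself undetected on 2 wildtype arrays, thus rests partly on background.

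All 12 tested genes of the other pericyte list had a higher mean in null, as did 44.9% of all tested probes. This was not particular to the list. It held for all 13 close relatives, all 13 endothelial, all 12 fibroblast and meningeal and 15 of 16 skeletal muscle genes tested. It held for only 9 of 16 regulators and 3 of 16 cartilage and sclerotome genes. Of the 20 listed pericyte genes 12 were tested, 1 was called and 7 (58.3%) reached an unadjusted p under 0.05, against 23.1% of all tested genes. Their median difference was 0.75, beside -0.03 over all tested genes by their brightest probe, of which 0.941% were called. The called gene was Vtn, which encodes vitronectin, an adhesive matrix and plasma protein made by brain pericytes. It read 7.22, 7.44, 6.59 and 6.99 in wildtype and 9.42, 8.94, 9.31 and 9.54 in null, a gap of 1.499 between the groups. The difference was 2.24 (SE 0.20), 4.73-fold, with an adjusted p of 0.00171 that stayed under the threshold whichever array was left out.

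Of the listed pericyte genes that were not called, Cd248 (endosialin) came closest, at 10.25 ± 0.30 and 11.30 ± 0.38 (SD, n = 4 each, adjusted p = 0.055, and 0.00476 without null replicate 1), and Notch3, the mural Notch receptor, differed by 0.15 (adjusted p = 0.566). Both were picked after their values were seen. Without null replicate 1, 5 of the 12 were called, beside 17% of all tested genes. The 8 listed genes that were not tested included Higd1b, Ndufa4l2, Cox4i2 and Atp13a5, which are among the more restricted pericyte genes, and no matched probe of the 8 was detected on more than 2 arrays.

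Other contractile and cytoskeletal genes gave 0 calls among the 17 tested of 20 listed. An unadjusted p under 0.05 was reached by 4 (23.5%), close to the 23.1% of all tested genes, and the median difference was 0.11 beside -0.03 over all tested genes. Mylk, the myosin light chain kinase that starts smooth muscle contraction, had the smallest p, with 9.64, 9.25, 9.63 and 9.85 in wildtype and 10.91, 10.27, 10.41 and 10.08 in null. The groups did not overlap, and the difference was 0.82 (SE 0.19, adjusted p = 0.0803, and 0.0292 without null replicate 1). Flna, the actin cross-linker filamin A, differed by 0.88 (adjusted p = 0.137), with null replicate 1 inside the wildtype range, and by 1.20 without that array (adjusted p = 0.00261). Without that array 2 of the 17 were called, beside 17% of all tested genes. By a second probe, Itga8, an integrin of smooth muscle, was called (ILMN_1227552, 1.06, adjusted p = 0.045), detected on 4 of 8 arrays, but not by its brightest. The second probe averaged 4.43 ± 0.14 in wildtype and 5.50 ± 0.41 in null (SD, n = 4 each). Its wildtype mean lay under the lowest detected level of 4.798 to 5.038. It thus passed the filter through the null group, and its difference rests on background.

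The transcription factors linked to mural cells gave 0 called of 16 tested and a median of 0.03, with 4 (25%) at an unadjusted p under 0.05, close to the share of all tested genes. The smallest p-values belonged to Foxc2 and Foxf1, forkhead factors of mesoderm, which were lower in null by 0.45 (adjusted p = 0.0981) and 0.73 (adjusted p = 0.109). Both were called without null replicate 1, at -0.51 (adjusted p = 0.0206) and -0.80 (adjusted p = 0.043). They were 2 of the 16 in a setting that called 17% of all tested genes. Foxc2 was at 12.40 ± 0.13 in wildtype and 11.95 ± 0.13 in null (SD, n = 4 each).

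Signals that recruit mural cells had 6 of 13 tested genes (46.2%) at an unadjusted p under 0.05 and a median of 0.22. Without null replicate 1, 3 were called, beside 17% of all tested genes. With all arrays 1 gene was called. This was Tek, the endothelial angiopoietin receptor Tie2, at 6.17, 5.63, 6.35 and 6.16 in wildtype and 6.90, 8.33, 7.46 and 8.05 in null, 3.05-fold higher (adjusted p = 0.0435). Tek kept its call without null replicate 1 (adjusted p = 0.00403) and lost it without any other single array, with adjusted p of 0.0728 to 0.143. Pdgfb, the ligand of Pdgfrb, was detected on 3 wildtype and 4 null arrays, at 5.22 ± 0.41 and 5.34 ± 0.24 (SD, n = 4 each, adjusted p = 0.753). It was picked for its role.

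Close relatives of the markers gave 0 called of 13 tested, 6 (46.2%) at an unadjusted p under 0.05, and a median of 0.55. Without null replicate 1, 2 of the 13 were called, beside 17% of all tested genes. Over all lists, the per-probe analysis of variance gave 0 of 135 genes after adjustment and 47 unadjusted, beside 12 and 3763 of 19965 tested probes. Pdgfra, the sister receptor of Pdgfrb in mesenchyme, was at 12.96 ± 0.32 and 13.53 ± 0.21 (SD, n = 4 each), and differed by 0.57 (adjusted p = 0.129). Cnn2, the calponin of non-muscle cells, differed by 0.93 (adjusted p = 0.131, and 0.036 without null replicate 1). The pancreatic counterparts of the channel subunits, Kcnj11 and Abcc8, were detected on 0 arrays.

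**Figure D3:**
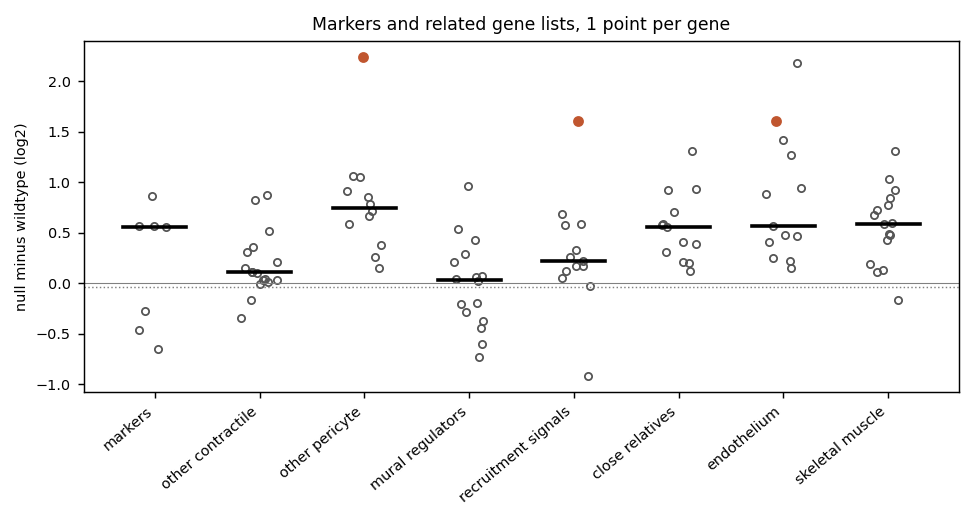
Null minus wildtype difference in log2 normalised intensity (vertical axis) of the tested genes of the markers, the 5 related lists and the endothelial and skeletal muscle lists (1 point per gene by its brightest probe), with filled points at an adjusted p under 0.05, a black bar at the list's median and a dotted line at the median of all tested probes, -0.04. Medians are 0.55 for the markers, 0.75 for other pericyte genes and 0.11 for other contractile genes, and the filled points are Vtn and Tek, the latter in both the recruitment and the endothelial list.

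Markers of other cells that the gate could hold were read in the same way. Endothelial genes were tested for 13 of 17, and all 13 had a higher mean in null, as did 44.9% of all tested probes. Tek alone was called (5 genes without null replicate 1, where 17% of all tested genes were called). An unadjusted p under 0.05 was reached by 8 (61.5%), against 23.1% of all tested genes, and the median was 0.57. Pecam1 and Cldn5, each detected on 1 wildtype array, passed the filter on the null group alone. Their summed level, on the log2 scale, was 10.6 to 11.2 in wildtype and 11.4 to 12.1 in null. Of the defining markers, Cdh5 was detected on 3 of 4 wildtype and 4 of 4 null arrays and Pecam1 on 1 of 4 and 4 of 4, whereas Tie1, Sox17 and Erg were detected on 0 arrays and Kdr on 1. Per array, the mean centred level of the list was highest in null replicates 2 (0.71) and 4 (0.47), the arrays highest for Kcnj8, and lowest in wildtype replicate 2 (-0.88). This order was not particular to endothelial genes. The other pericyte list was at 0.51, 0.66 and -0.91 on these arrays, its highest and lowest. The recruitment list (0.27, 0.28 and -0.54) and the fibroblast and meningeal list (0.40, 0.64 and -0.96) followed it too. The skeletal muscle, neuronal, regulator, close relative and other contractile lists were highest in null replicates 1 or 3. The part of endothelial RNA in the values of Kcnj8, Abcc9, Mcam and Pdgfrb was not tested.

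Skeletal muscle genes were tested for 16 of 23, with 0 called, 5 (31.2%) at an unadjusted p under 0.05, all higher in null, and a median of 0.59. Their summed level was 10.2 to 11.5 in wildtype and 11.1 to 12.7 in null. Null replicate 1 had the highest mean centred level (1.05) and wildtype replicate 2 the lowest (-0.78), as on the brightest Acta2 probe. Myod1 was detected on 1 of 4 wildtype and 3 of 4 null arrays, Myog on 3 of 4 and 4 of 4, and Pax3 on 0. Cdh15, a cadherin of myogenic cells, differed by 1.03 (adjusted p = 0.0883, and 0.0491 without null replicate 1). It was detected on 2 of 4 wildtype and 4 of 4 null arrays, so the size of its difference rests partly on background. The part of muscle RNA in the Acta2 values was not tested.

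**Figure D4:**
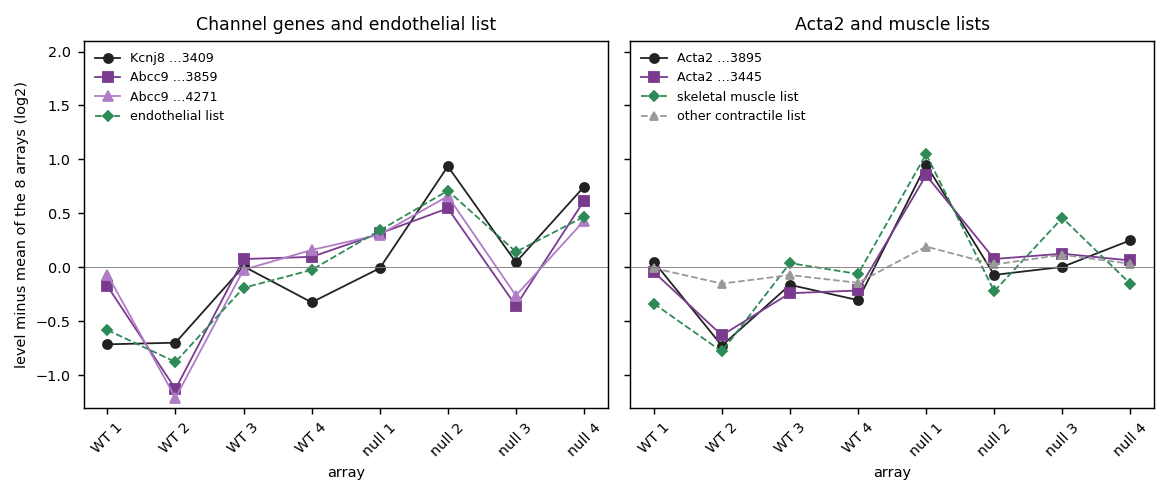
Log2 normalised intensity minus the mean of the 8 arrays (vertical axis) on each array (horizontal axis, WT for wildtype), for Kcnj8, both tested Abcc9 transcripts and the mean of the endothelial list on the left, and for the 2 brightest Acta2 probes and the means of the skeletal muscle and other contractile lists on the right. The endothelial list and Kcnj8 are highest in null replicate 2, and the skeletal muscle list (1.05) and both Acta2 probes are highest in null replicate 1 and lowest in wildtype replicate 2.

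The labelled tissue was plainly present, with Sox9, Col2a1 and Pax1 detected on all 8 arrays. Of 16 tested cartilage and sclerotome genes 6 fell (Sox5, Acan, Pax1, Col2a1, Col9a1 and Sox9) and 1 rose (Nkx3-2), with a median of -0.79 and a summed level of 15.05 to 15.3 in wildtype and 14.2 to 14.6 in null. Sox5 stayed called whichever array was left out, and the other 6 in 1 to 3 of the 8 such fits. Fibroblast and meningeal genes gave 2 called higher of 12 tested, Slc22a6, an organic anion transporter, and Aldh1a1, a retinaldehyde dehydrogenase, with 8 (66.7%) at an unadjusted p under 0.05, a median of 0.68 and a summed level of 14.8 to 15.3 and 15.4 to 15.7. With single arrays left out, Slc22a6 kept its call 4 times of 8 and Aldh1a1, detected on 1 of 4 wildtype arrays, every time. Neuronal genes gave 0 called of 7 by the brightest probe, 6 with an unadjusted p under 0.05 and all 6 higher in null, a median of 1.17 and a summed level of 10.01 to 11.1 and 11.4 to 12.1. By their probe of smallest p Dcx and Elavl3 were called, and without null replicate 1, where 17% of all tested genes were called, Dcx, Map2 and Nefm. These and Elavl4 and Stmn2 were detected on all 8 arrays, Tubb3 on 1, and Nefl and Snap25 on 0. The part of these cells in the differences of the mural markers was not tested. Some genes stand in more than 1 list, among them Pdgfra, Tek, Actc1 and Acta1.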

How the data were processed

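The authors hybridised RNA of sorted cells to Illumina MouseWG-6 v2 BeadChips and exported background-subtracted intensity from GenomeStudio (version not stated). These linear intensity values make up the deposited non-normalised table, with a detection p-value beside each, deposited as 1 minus p and turned back here. A second deposited table holds log2 values, centred per array and relative to a probe baseline whose arrays are unknown. Its scale is log2, its direction follows the labels, and its column medians were -0.13, 0.17, 0 and 0.14 for wildtype and 0, 0, -0.16 and -0.086 for null as that table numbers them. Probes of the first table carry array addresses only and were matched by value to the second: 35665 of 45281 (78.76%) matched uniquely at a tolerance of 0.001 (largest deviation 1.9e-06). Null replicates 2, 3 and 4 of the log2 table are null replicates 1, 2 and 3 of the intensity table, and its null replicate 1 matched no intensity column; replicate numbers here are those of the intensity table. The 4 unmatched probes of the set belong to Abcc9, Acta2, Myh11 and Tagln, and the rows that could hold them were detected on 0 arrays. The platform annotation gives 1 gene for 34885 probes, several for 18 and does not list 10378. 

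Background correction was by limma 3.58.1 (R 4.3.3, statmod 1.5.0) with normexp, offset 16 and negative controls taken from the detection values, and was followed by quantile normalisation and log2. Probes with detection on 4 or more of the 8 arrays (p under 0.05) were fitted with lmFit and eBayes, and p-values were adjusted by Benjamini-Hochberg over all of them. A gene of a list was read by its tested probe of highest mean. Single probes outside the fit were compared by an exact two-sided permutation test over all 70 splits. The number of arrays limits the precision. The procedure was tested on simulated arrays with the means and spreads of the tested probes. It called 22% of 1.5-fold, 60% of 2-fold, 96% of 4-fold and 100% of 8-fold changes, with 4 false calls. Changes of 1.5-fold were thus mostly missed, and the largest tested marker difference, that of Kcnj8, was 1.82-fold. Named were every marker probe, Nkx3-2, and up to 4 called genes per list or else the 2 of smallest p. The 5 profiles nearest to the marker with the largest difference were also named. Other names, among them Myl9, Srf, Myocd, Mrtfa and Mrtfb, were picked outside this rule, and the text does not say so each time. The markers and lists were chosen with earlier results of these data known. Alternatives changed background, scaling, filter, offset, array weights, pairing, table, test, probe rule and arrays. Promoter windows are from RefSeq, GRCm38.p6; probe and protein sequences were not used here.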

Additional observations from a re-analysis of the deposited data

Results flagged for a closer look

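Within a group of 4, a single value is expected to stand apart by the criterion used about 1 time in 20 by chance, and each of these was 1 of 26 groups examined. The Abcc9 probe ILMN_3104271 read 5.162 in wildtype replicate 2, where the nearest wildtype array read 6.304, a gap of 0.834 of the whole range. The Acta2 probe ILMN_2923445 read 8.98 in null replicate 1, where the nearest null array read 8.253, a gap of 0.921 of the range. In the deposited intensities behind that Acta2 probe the null arrays were close together, at 348.2, 368.5, 353.1 and 381.5, so null replicate 1 stood apart after normalisation only.

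The log2 table holds 1 null array that has no intensity column and entered no level or difference of the report; it enters the alternative that uses that table. On it 7 of the 13 tested probes lay above all 4 wildtype arrays, which 19.8% of all tested probes did. Relative to the wildtype mean of that table, on the log2 scale, the Acta2 probes were at 1.393 (ILMN_2693895), 1.364 (ILMN_2923445), 1.571 (ILMN_2710354) and 1.071 (ILMN_2710353), and the highest wildtype arrays were at 0.271, 0.27, 0.487 and 0.394. The Abcc9 probes were at 1.412 (ILMN_2623859) and 1.2 (ILMN_3104271), against 0.489 and 0.541 for the highest wildtype arrays. Pdgfrb was at 0.29, against 0.202.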

How the results depend on the processing

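With all arrays 156 probes, 0 of 13 marker probes and 11 of 135 list genes were called. In the same order the counts were 102, 0 and 7 with a floor of 16 in place of normexp, 1, 0 and 0 with median and median absolute deviation scaling, 75, 0 and 5 without a filter (0 of 18 marker probes), 6190, 4 and 55 with array weights, 16, 0 and 2 in the deposited log2 table (which also holds another null array in place of null replicate 4), and 12, 0 and 0 with a per-probe analysis of variance after Benjamini-Hochberg (3763, 7 and 47 unadjusted), run without the scaling and fold limit of the study's methods. Reading each list gene by its probe of smallest p called 14. The 4 marker probes called with array weights were those of Pdgfrb, Kcnj8, Cspg4 and Acta2 (ILMN_2710353). They were 4 of 13, in a setting that called 6190 of 19965 tested probes. Called probes were higher in null for 49.4% with the main scaling, 79.8% with each array centred on its median, 0% with median absolute deviation scaling and 18.8% in the log2 table. Leaving out 1 array gave 21 to 3185 probes, 0 to 3 marker probes and 3 to 34 list genes: 78 probes without wildtype replicate 1, 42 without 3, 72 without 4, and 3185, 41, 41 and 21 without null replicates 1 to 4. The 3 marker probes, called only without null replicate 1, were those of Pdgfrb, Kcnj8 and Cspg4, in a setting that called 16% of all tested probes. Chosen after seeing the data, the fit without null replicate 1 and wildtype replicate 2 called 4048, 3 and 41, and that without null replicates 1 and 3 called 1402, 2 and 23. The replicate block called 20, 0 and 3; same-numbered arrays had correlations of deviations of -0.195 to 0.036, so the numbers do not pair the arrays, and the block changed no marker call. Direction turned for the Mcam probe ILMN_1229960 with centring (0.269, where the median of all tested probes moved from -0.04 to 0.19), array weights (0.225), without wildtype replicate 1 (0.017), without null replicate 1 (0.095, with -0.218 to 0.095 over the fits that left out 1 array), without that and wildtype replicate 2 (0.095) and without null replicates 1 and 3 (0.216). It also turned for the Acta2 probe ILMN_2693895 with median absolute deviation scaling (-0.316), and for ILMN_2710354 without null replicate 1 and wildtype replicate 2 (-0.03). The cause was not tested. Of 271 marker differences under an alternative, 226 under planned settings and 18 under added ones kept direction and side of the threshold. A further 14 and 5 had a p under 0.05 newly. Of these 14, 7 were in the unadjusted analysis of variance, with no adjusted p, 4 with array weights and 3 without null replicate 1. Rgs5, Myh11, Cnn1 and Tagln lie near background, which limits what can be read from them.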

Other observations

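Blood genes set 1 array apart without following genotype. Of 9 tested blood and macrophage genes 0 were called in limma and 0 had an unadjusted p under 0.05, with a median difference of -0.13, but their mean centred level was 1.35 in wildtype replicate 4 and between -0.79 and 0.26 on the 7 other arrays. Hba-a1, the adult alpha globin, read 8.30, 6.91, 8.88 and 11.30 in wildtype and 8.37, 8.54, 8.54 and 9.30 in null, and Hbb-y, an embryonic beta globin, read 8.93, 7.96, 9.07 and 11.67 and then 8.98, 9.69, 9.67 and 9.88. These genes were picked after their values were seen.

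On the null array without an intensity column the remaining tested markers were also read. The Mcam probes lay below all wildtype arrays, at -1.19, -0.93 and -1.44 relative to the wildtype mean, and Cspg4 at -0.30, so 4 of 13 lay below, against 22.4% of all tested probes. Kcnj8 was at 0.84 and Tagln at 0.52, both inside the wildtype range, whose highest arrays were at 0.85 and 0.64. The median over all tested probes was -0.02.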
